A study of Mus musculus with 11 samples.

Results

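The genes described are 10 ADAMTS proteases (Adamts1, Adamts2, Adamts4, Adamts5, Adamts7, Adamts8, Adamts9, Adamts12, Adamts14 and Adamts15), taken as a list of symbols. Each was read from the probe set that carries its symbol alone, or from the brightest such probe set over the 11 arrays, and 9 of the 10 were measured among the 19938 genes tested. Adamts2 is not analysed here. The arrays were hybridised with cDNA of fibroblasts taken straight from fresh mammary tissue of female mice by fluorescence-activated cell sorting, as CD140+ F4/80- EpCAM- cells in the labels (CD140a is PDGFRα, a fibroblast receptor, F4/80 marks macrophages and EpCAM epithelium). The study's methods differ from the labels here. For the array sort they name antibodies to CD140a and F4/80, and they name an EpCAM antibody only for the validation sorts. Normal glands came from FVB/n mice aged 8 weeks (2 arrays, D2 and D5). The other stages came from MMTV-PyMT mice, in which a mouse mammary tumour virus promoter drives the polyoma middle T oncogene in the mammary epithelium, so that the driver of these tumours sits in the epithelium. These were hyperplasia at 4 weeks (3 arrays, D6, D7 and D12), carcinoma at 9 weeks (D3, D4 and D10) and advanced carcinoma at 12 weeks (D8, D9 and D11, called late carcinoma in the labels). The fibroblasts of carcinoma and advanced carcinoma are together called cancer-associated fibroblasts (CAFs), as the study calls them. Each array holds the pooled cells of 1 cohort of mice, and each stage has its own age, so that stage and age cannot be told apart.

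ADAMTS proteases (a disintegrin and metalloproteinase with thrombospondin motifs) are secreted zinc enzymes that cut proteins of the extracellular matrix. They are made with a propeptide that furin-like convertases remove, they are held near the cell or in the matrix by their thrombospondin repeats, and TIMP3 is their best known tissue inhibitor. Adamts1, Adamts4, Adamts5, Adamts8, Adamts9 and Adamts15 form the group of proteoglycan-cutting enzymes, with aggrecan and versican as the classic targets. Adamts14, with Adamts2 and Adamts3, belongs to the procollagen N-propeptidases, which trim fibrillar collagens before fibrils form. Adamts7 and Adamts12 are known for cutting cartilage oligomeric matrix protein.

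Both members that fell in CAFs have a promoter in the RefSeq table used here (GRCm38.p6), and the 250 bases before each start are shown as a description. A link between these sequences and the levels of the genes was not tested. The Adamts12 window lies at chr15:11064523-11064772 on the plus strand, and the Adamts14 window at chr10:61273420-61273669 on the minus strand. Both are written 5′ to 3′ in the direction of transcription, with matches to a searched motif in capitals.
Adamts12: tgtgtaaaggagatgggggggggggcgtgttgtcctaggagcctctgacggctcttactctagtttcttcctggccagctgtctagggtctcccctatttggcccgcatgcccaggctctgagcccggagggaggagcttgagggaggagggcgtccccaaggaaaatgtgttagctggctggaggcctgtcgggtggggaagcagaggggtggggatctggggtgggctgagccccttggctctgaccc
Adamts14: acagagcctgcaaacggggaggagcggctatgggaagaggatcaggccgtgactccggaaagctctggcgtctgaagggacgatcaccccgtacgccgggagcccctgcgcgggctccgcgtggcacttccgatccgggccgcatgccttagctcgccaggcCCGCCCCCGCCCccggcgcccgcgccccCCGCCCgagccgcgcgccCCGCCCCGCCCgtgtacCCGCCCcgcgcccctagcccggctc
GC content was 63.2% for Adamts12 and 76.4% for Adamts14. Over 32851 promoter windows of the same length the median was 52.4% and the upper quartile 61.2%, so both windows were above that quartile. Searched on both strands were TATAAA (in 12.4% of all windows), CCAAT (33.8%), GGGCGG (32.7%) and TGANTCA (6.75%). Adamts14 held 6 matches to GGGCGG, all in the other orientation (CCGCCC) and all between 25 and 88 bases before the start. Adamts12 held no match to any of the 4. The table also lists Adamts1, Adamts2 and Adamts9.

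The values are log2 expression from the robust multi-average method, and array medians lay between 5.28 and 5.39. Some arrays stood apart. In each probe set, adding normal D2 to advanced carcinoma D11 gave 2 times the average of the remaining 9 arrays, to within 0.000144, whereas the next closest of the 55 pairs of arrays missed it by up to 3.55. The source of this tie is not given in the sources used here, and the members' differences in CAFs are given with and without them. Carcinoma D4 had the lowest mean over 12 fibroblast markers (9.37, against 10.62 to 11.01 in the other 5 CAF arrays and 10.92 to 11.34 in normal and hyperplasia arrays) and the highest mean over 12 luminal epithelial markers (9.24). The luminal mean lay between 8.10 and 9.24 in CAF arrays and between 5.99 and 7.56 in the others, and 11 of the 12 markers rose, Epcam among them (9.33 ± 0.46 against 7.17 ± 0.78, SD, n = 6 and 5). The mean of 11 macrophage markers lay between 6.23 and 8.27 in CAF arrays and between 4.61 and 6.08 in the others, and 11 of 11 rose, with Adgre1, the gene of F4/80, at 6.46 ± 1.11 against 4.14 ± 0.56. Pdgfra, the gene behind the sort, was at 10.50 ± 0.66 in CAFs and 11.16 ± 0.22 in the others and did not pass the test. Of the 12 fibroblast markers 2 fell, Pi16 (8.55 ± 0.57 against 9.78 ± 0.32) and Cd34 (11.16 ± 0.49 against 11.99 ± 0.21). All marker counts here stand beside 24.9% of all genes called in the same comparison, with 12.8% lower. The count of fibroblast markers that fell was thus near the background. Basal epithelial markers rose in 3 of 6, while 3 of 7 markers of T and NK cells, 3 of 4 of B cells and 3 of 6 of adipocytes fell. The mean of the T and NK list lay between 5.50 and 7.11 in CAF arrays and between 6.21 and 8.74 in the others, and that of the B cell list between 5.76 and 7.33 and between 6.82 and 8.70. Markers of other cell types thus moved with the comparisons of CAFs below, and their part in the changes was not tested. In sorted but pooled cells, fewer cells of a type and less RNA per cell cannot be told apart.

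In CAFs, 1 member rose and 2 fell against normal and hyperplasia fibroblasts. Adamts8 rose 2.20-fold, Adamts14 fell 2.43-fold and Adamts12 fell 2.25-fold, while the other 6 did not pass the adjusted threshold of 0.05 (limma, Benjamini-Hochberg over all genes). A count of 3 of 9 stands beside 24.9% of all genes called in this comparison (12% higher and 12.8% lower), so the share of members called was close to the background. The median log2 difference over the 9 members was -0.51, and over all genes it was -0.04. The 12 fibroblast markers had a median of -0.63 in the same comparison. When the cut-offs of the study were used (a fold over 1.5 and an unadjusted p under 0.05), 4 of 9 members and 12.2% of all genes were called. Here and below these cut-offs were applied to limma p-values, whereas the study used one-way analysis of variance.

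Adamts8 is a proteoglycan-cutting member also known for restraining vessel growth. Its log2 level was 4.32 and 4.39 in the normal arrays, 4.47, 4.43 and 4.34 in hyperplasia (D6, D7 and D12), 5.64, 4.90 and 5.39 in carcinoma (D3, D4 and D10), and 5.76, 5.77 and 5.70 in advanced carcinoma (D8, D9 and D11). Every CAF array lay above every normal and hyperplasia array, as did those of 7.77% of all genes. Carcinoma D4, the lowest CAF array, was still above the highest hyperplasia array. The difference was 1.13 on the log2 scale (SE 0.14, 95% interval 0.82 to 1.45, adjusted p = 0.000464 in limma). Adamts8 lay below the median gene level of 5.64 in every normal and hyperplasia array and in carcinoma D4 and D10, and its CAF mean (5.53) was below it too. The values carry no detection call, so its fold is a ratio of measured values. Whether either group stood above background is not given. The difference was 1.08 without the tied arrays (adjusted p = 0.00428), 1.26 without carcinoma D4 (adjusted p = 4.07e-05) and 1.23 without D4 and both tied arrays (adjusted p = 0.000962).

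Adamts14, the measured procollagen N-propeptidase among the members, was at 6.41 and 7.52 in normal arrays and at 7.41, 7.14 and 7.01 in hyperplasia. It was at 6.11, 4.66 and 6.63 in carcinoma and at 5.46, 5.66 and 6.39 in advanced carcinoma. Of the 6 CAF arrays, 5 lay below all normal and hyperplasia arrays, and carcinoma D10 lay above normal D2, a tied array. Adamts14 fell by 1.28 on the log2 scale (SE 0.33, 95% interval -2.01 to -0.55, adjusted p = 0.0180 in limma). Its difference was -1.57 without the tied arrays (adjusted p = 0.0162), -1.05 without carcinoma D4 (adjusted p = 0.0160) and -1.30 without D4 and both tied arrays (adjusted p = 0.00988).

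Adamts12 cuts cartilage oligomeric matrix protein. Its log2 level was 10.04 and 10.60 in normal arrays, 10.73, 10.54 and 10.43 in hyperplasia, 9.95, 7.71 and 10.04 in carcinoma, and 9.27, 9.20 and 9.62 in advanced carcinoma. All 6 CAF arrays lay below the others, as did those of 7.14% of all genes, but carcinoma D10 and normal D2 were apart only beyond the second decimal. Adamts12 fell by 1.17 (SE 0.36, 95% interval -1.96 to -0.38, adjusted p = 0.0355 in limma). Carcinoma D4 was the lowest array by far, and without it the difference was -0.85 and the adjusted p 0.00876. The call was lost with contrasts of the one-way analysis of variance that the study's methods name (adjusted p = 0.0647), with a term for the tied arrays (0.0516), without them (-1.34, adjusted p = 0.0532) and when any of normal D5, hyperplasia D6, D7 or D12 or advanced carcinoma D8 or D9 was left out, with adjusted p-values of up to 0.0788. Without D4 and both tied arrays the difference was -0.96 (adjusted p = 0.0141).

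**Figure D1:**
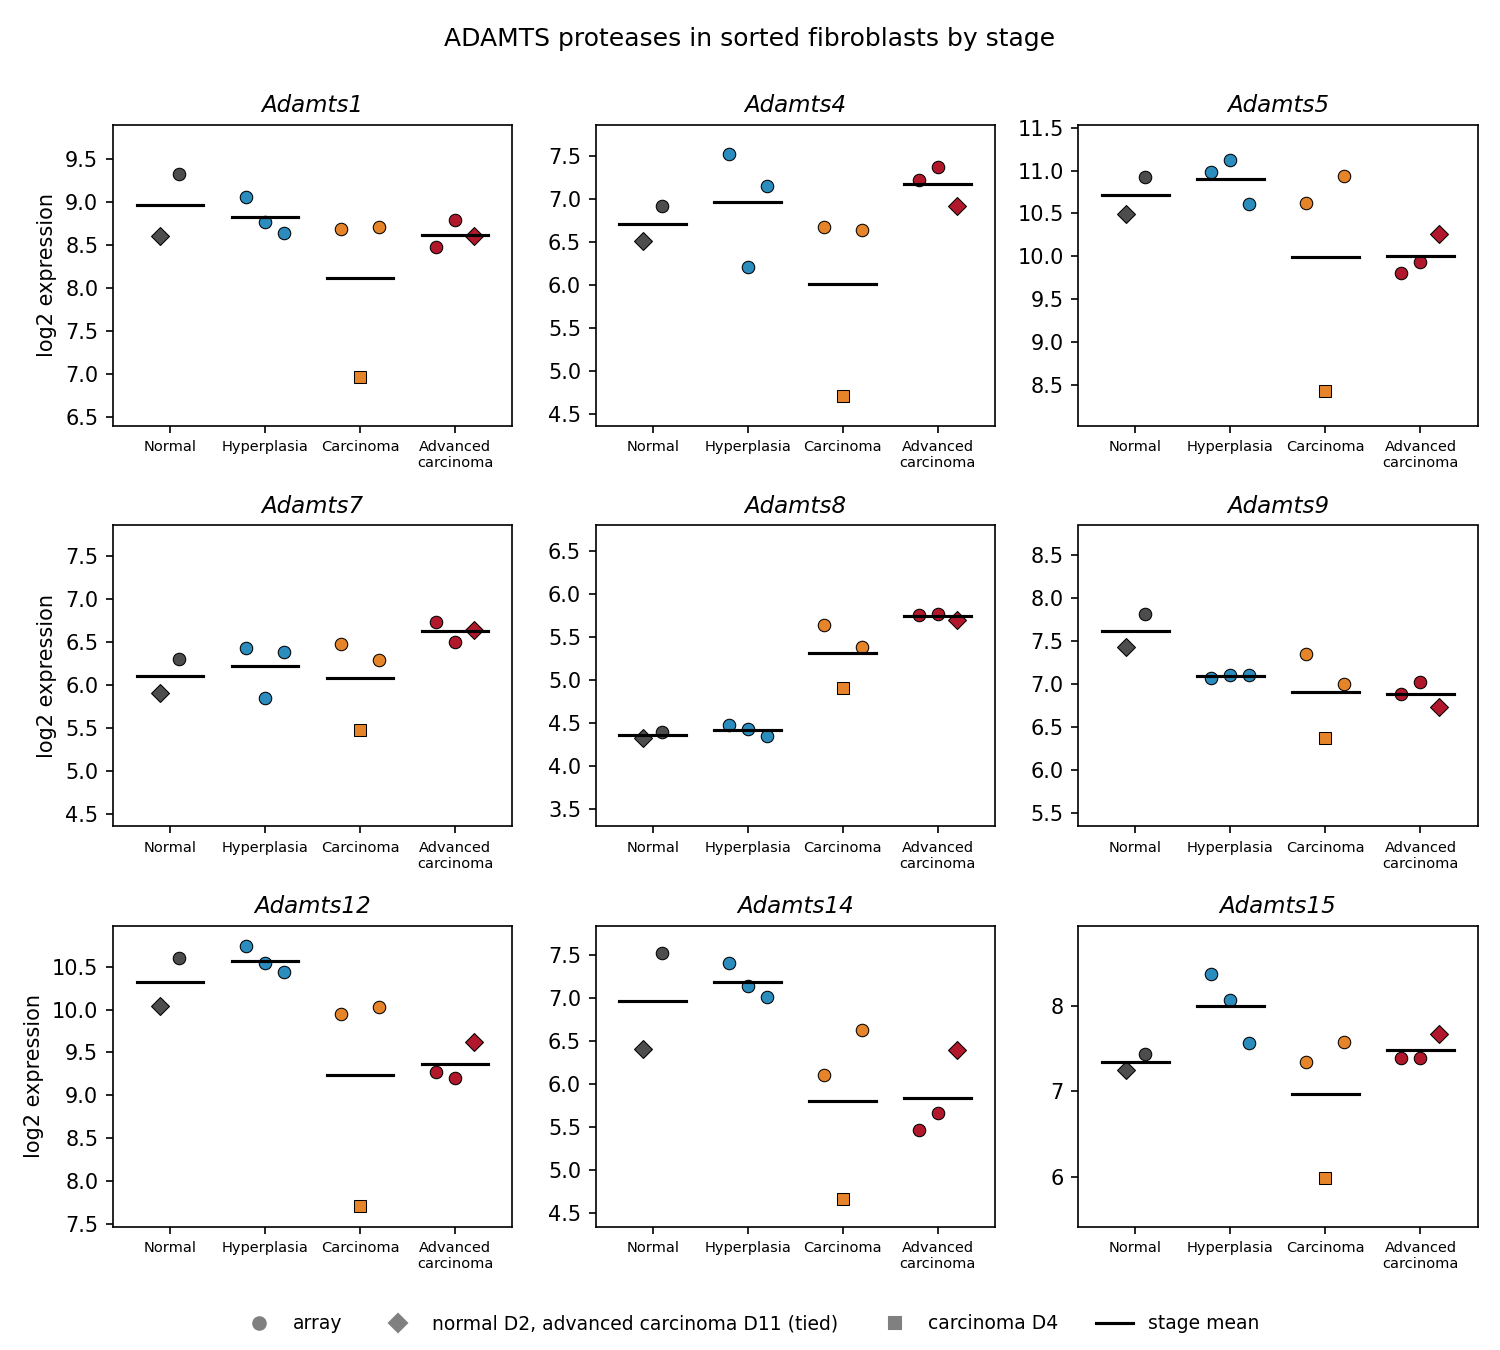
Log2 expression (y axis, panels of equal span but their own range) of the 9 measured ADAMTS members in each array by stage (x axis), where points are arrays, diamonds the tied arrays normal D2 and advanced carcinoma D11, squares carcinoma D4 and bars stage means. Adamts8 lies at 4.32 to 4.47 in normal and hyperplasia arrays and at 4.90 to 5.77 in CAF arrays, and carcinoma D4 is the lowest of the 11 arrays for the 8 other members.

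Of the other proteoglycan-cutting members none passed. Adamts5, an aggrecanase, was at 10.49 and 10.93 in normal arrays, at 10.98, 11.13 and 10.61 in hyperplasia, at 10.62, 8.44 and 10.93 in carcinoma and at 9.81, 9.93 and 10.26 in advanced carcinoma. The advanced carcinoma arrays were all below the normal and hyperplasia arrays, while carcinoma D3 and D10 were among them. The CAF difference for Adamts5 was -0.83 (SE 0.37, adjusted p = 0.122 in limma), or -0.52 without carcinoma D4 (adjusted p = 0.107) and -0.97 without the tied arrays (0.152). Adamts9, which cuts versican and is read by 6 probe sets here, was at 7.43 and 7.82 in normal arrays, 7.07, 7.11 and 7.11 in hyperplasia, 7.36, 6.37 and 7.0 in carcinoma and 6.88, 7.03 and 6.74 in advanced carcinoma. Normal glands thus held the highest Adamts9 arrays, and the hyperplasia arrays lay within the range of the CAF arrays. The CAF difference for Adamts9 was -0.41 (SE 0.18, adjusted p = 0.118 in limma), or -0.35 without the tied arrays (adjusted p = 0.278), and the differences of its 6 probe sets ranged from -0.41 to -0.17.

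Adamts1, which cuts versican during ovulation, had a mean of 8.37 ± 0.70 in CAFs and 8.88 ± 0.31 in the others (SD, n = 6 and 5), a difference of -0.51 (adjusted p = 0.245 in limma). Adamts15, a versican-cutting enzyme, had means of 7.22 ± 0.62 and 7.73 ± 0.46, also a difference of -0.51 (adjusted p = 0.241). Adamts4, an aggrecanase, had means of 6.59 ± 0.97 and 6.86 ± 0.52, a difference of -0.27 (adjusted p = 0.681). All 3 were far lower in carcinoma D4 than in any other array. Without D4 the difference of Adamts4 changed sign to 0.10, and those of Adamts1 and Adamts15 became -0.23 and -0.26. Adamts7, the other enzyme that cuts cartilage oligomeric matrix protein, had means of 6.36 ± 0.45 and 6.17 ± 0.27 with a difference of 0.18 (adjusted p = 0.557), or 0.36 without D4 (adjusted p = 0.0706). Without the tied arrays the differences were -0.63 for Adamts1, -0.43 for Adamts4, 0.061 for Adamts7 and -0.72 for Adamts15, and none passed. Adamts7 and Adamts12 thus differed in sign, although only the change of Adamts12 passed.

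**Figure D2:**
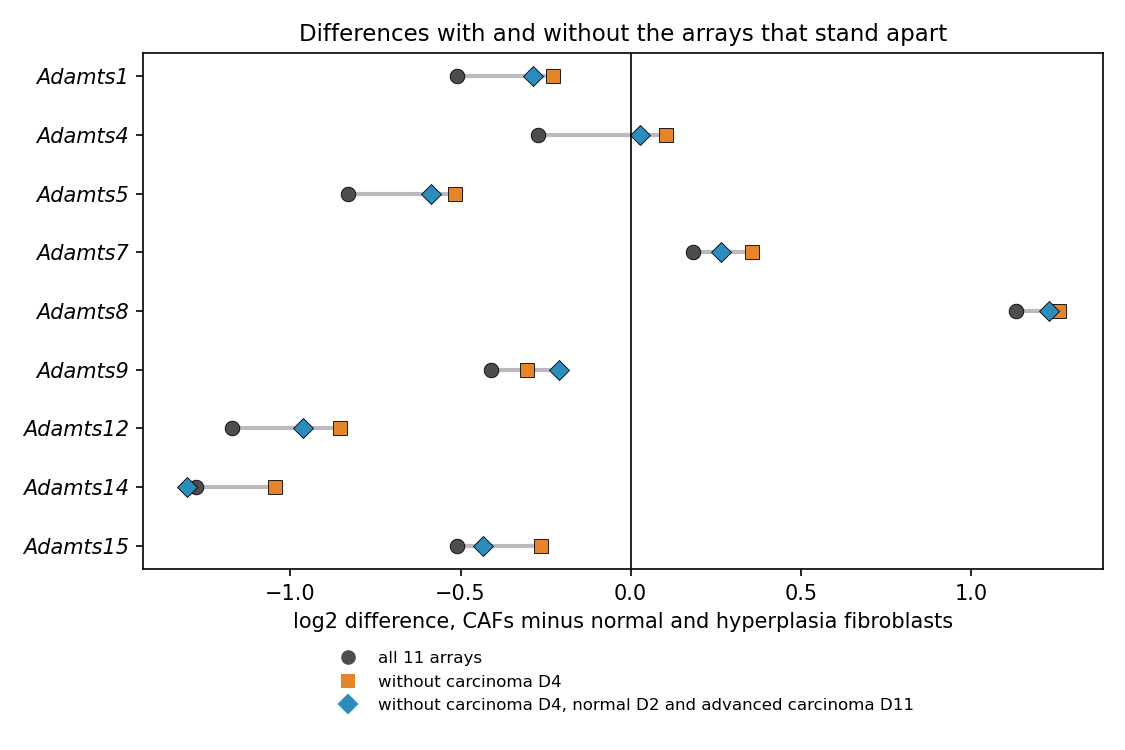
Log2 difference of the 9 members (x axis, CAFs minus normal and hyperplasia fibroblasts; y axis, gene) with all 11 arrays (circles), without carcinoma D4 (squares) and without D4 and the tied arrays normal D2 and advanced carcinoma D11 (diamonds). Adamts8 stays between 1.13 and 1.26, Adamts12 moves from -1.17 to -0.85 without D4, and Adamts4 moves from -0.27 to 0.10.

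By stage, in 1 limma fit over the 11 arrays, Adamts8 was the member that passed in each comparison of a tumour stage with normal glands or hyperplasia. Its means were 4.36 ± 0.05 in normal glands (n = 2), 4.42 ± 0.07 in hyperplasia and then 5.31 ± 0.38 in carcinoma against 5.74 ± 0.04 in advanced carcinoma (SD, n = 3 each). These comparisons share arrays and are not independent of each other or of the CAF comparison. In advanced carcinoma against normal glands, 5.61% of all genes passed and 1 of 9 members did: Adamts8 was higher by 1.38 (SE 0.17, 95% interval 0.99 to 1.77, adjusted p = 0.00661, 2.61-fold). The call was lost without normal D2 (1.35, adjusted p = 0.0515), without normal D5 (1.42, adjusted p = 0.0665) and without both tied arrays (adjusted p = 0.0877), which leave 1 normal array, assumed to vary like the other stages. In carcinoma against normal glands, where 0.938% of all genes passed, Adamts8 was higher by 0.95 (adjusted p = 0.0457), a call that held in 4 of 20 alternatives and was lost when any array other than carcinoma D4 was left out (adjusted p of up to 0.375). Against hyperplasia, where 14.5% of all genes passed for advanced carcinoma and 9.25% for carcinoma, Adamts8 was higher by 1.33 (adjusted p = 0.00310) and by 0.90 (adjusted p = 0.0126, or 0.0508 without hyperplasia D6).

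No member passed between hyperplasia and normal glands or between the tumour stages. In hyperplasia against normal glands 0 of 19938 genes passed in limma, 841 (4.22%) had an unadjusted p under 0.05, and 0 of the 9 members did. The widest member differences there were 0.65 for Adamts15 (7.34 ± 0.13 to 8.00 ± 0.41) and -0.53 for Adamts9 (7.62 ± 0.28 to 7.09 ± 0.02), each with an adjusted p of 0.999. All 3 hyperplasia arrays lay above both normal arrays for Adamts15, as for 10.7% of all genes, and below both for Adamts9, as for 7.80%. In advanced carcinoma against carcinoma 0 of 19938 genes passed in limma and 1124 (5.64%) had an unadjusted p under 0.05, with Adamts8 the 1 member among them (0.43, 95% interval 0.08 to 0.78, adjusted p = 0.884). In the same comparison Adamts4 differed by 1.17 (6.0 ± 1.13 in carcinoma, 7.17 ± 0.23 in advanced carcinoma, adjusted p = 0.884) and Adamts7 by 0.54 (adjusted p = 0.893), and all 3 advanced carcinoma arrays lay above all 3 carcinoma arrays for each of the 3 genes, as for 6.48% of all genes.

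With the study's cut-offs, 2 of 9 members were called in advanced carcinoma against normal glands (10.6% of all genes), 2 in carcinoma against normal glands (6.98%), 3 in advanced carcinoma against hyperplasia (13%) and 4 in carcinoma against hyperplasia (10.5%). None was called in hyperplasia against normal glands (1.0% of all genes) or in advanced carcinoma against carcinoma (0.727%).

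Adamts12 and Adamts14 did not pass in any comparison of single stages in limma with equal weight on every array. With array weights, both passed in advanced carcinoma against normal glands (adjusted p = 0.0478 and 0.0419) and against hyperplasia (0.00768 and 0.00830). Under that setting 19.6% and 31.3% of all genes passed in these comparisons, against 5.61% and 14.5% with equal weights. Adamts12 had means of 10.32 ± 0.40, 10.57 ± 0.15, 9.23 ± 1.32 and 9.37 ± 0.23 from normal glands to advanced carcinoma, and Adamts14 had 6.96 ± 0.79, 7.19 ± 0.21, 5.80 ± 1.02 and 5.84 ± 0.49. In advanced carcinoma against hyperplasia, where the arrays of both genes did not overlap, nor did those of Adamts5 and Adamts9 (4 of 9 members lower, beside 23.1% of all genes), the differences were -1.20 (adjusted p = 0.157) and -1.35 (adjusted p = 0.0981). Carcinoma D4 belongs to neither of these stages but enters the pooled spread of the fit, and without it the adjusted p-values were 0.00114 and 0.0161. Without D4, 25.2% of all genes passed in that comparison. In carcinoma against hyperplasia the differences were -1.34 (adjusted p = 0.140) and -1.39 (adjusted p = 0.110), and without D4 they were -0.58 and -0.82. Against normal glands, advanced carcinoma differed by -0.95 for Adamts12 (adjusted p = 0.382), -1.13 for Adamts14 (0.266), -0.74 for Adamts9 (0.113) and -0.71 for Adamts5 (0.540). Without D4, Adamts5, Adamts9 and Adamts12 passed there, as did 15.8% of all genes.

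Adamts5, Adamts12 and Adamts14 followed each other across the 11 arrays. Pearson's r was 0.97 between Adamts5 and Adamts12, 0.96 between Adamts12 and Adamts14 and 0.91 between Adamts5 and Adamts14, and 0.91, 0.96 and 0.88 without carcinoma D4. Adamts8 ran the other way, with r = -0.46 to Adamts12 and -0.58 to Adamts14, and -0.86 and -0.81 without D4. These values describe 11 arrays that share stage differences, the tied pair and D4. Likeness was ranked over all genes except those with symbols of predicted genes or Riken clones (Gm and a number, Rik or LOC). The patterns most like that of Adamts8 were then those of F5 (r = 0.98), Myo7a (0.98) and Col11a1 (0.97). The closest to Adamts12 were Ces2g, Lamb1 and Cd47 (each r over 0.99), and the closest to Adamts14 were Zfp9, Pi4kb and Meis2 (each r = 0.99).

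The counts that follow for related genes stand beside the same 24.9% of all genes called in CAFs. Of the 24 related genes named below, 20 still passed without the tied arrays (Adamts16, Adamts18, Thbs1 and Tnc did not), and 18 without the tied arrays and carcinoma D4 (Adamts16, Adamts18, Adamts19, Furin, A2m and Thbs1 did not). Of 9 further measured family members, 1 rose and 5 fell in CAFs, and over all 18 measured ADAMTS genes 9 passed (2 up, 7 down), with a median difference of -0.50. Adamts3, a relative of Adamts14 that also processes a lymphatic growth factor, was at 6.07 and 6.23 in normal arrays, 5.79, 5.81 and 6.31 in hyperplasia, 6.89, 6.40 and 6.80 in carcinoma and 6.62, 7.04 and 6.79 in advanced carcinoma. All CAF arrays lay above all others, as did those of 7.77% of all genes. Adamts3 rose by 0.72 (SE 0.13, adjusted p = 0.00282 in limma), with all of its 16 probe sets higher in CAFs. The measured procollagen N-propeptidases therefore moved in opposite directions, Adamts3 up and Adamts14 down. Adamts17, an enzyme of fibrillin microfibrils, fell by 0.72 (adjusted p = 0.00333), with all CAF arrays below the others, as for 7.14% of all genes. Adamts10 fell by 0.68 (adjusted p = 0.0308), Adamts16 by 1.34 (0.0415), Adamts18 by 0.50 (0.0278) and Adamts19 by 1.05 (0.0382), and these last 4 calls were lost in at least 7 of the alternatives each.

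ADAMTS-like proteins keep the thrombospondin repeats but lack the protease part. Of 6 measured, 1 rose and 4 fell in CAFs, with a median difference of -1.08. Papln, papilin of basement membranes, ranged from 7.22 to 8.25 in CAF arrays and from 5.97 to 6.84 in the others, a rise of 1.23 (adjusted p = 0.00159 in limma). Adamtsl4, which binds fibrillin, ranged from 6.83 to 8.22 in CAF arrays and from 8.39 to 9.59 in the others, and fell by 1.60 (adjusted p = 0.00268). Neither overlapped between the groups, beside 7.77% of all genes higher and 7.14% lower without overlap. Both also passed in advanced carcinoma against normal glands (1.41 and -1.78, adjusted p = 0.0347 and 0.0466). Adamtsl3 fell by 1.32 (adjusted p = 0.00981), Adamtsl1 by 1.37 (0.0199, or 0.0511 without hyperplasia D7) and Adamtsl5 by 0.78 (0.0349).

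**Figure D3:**
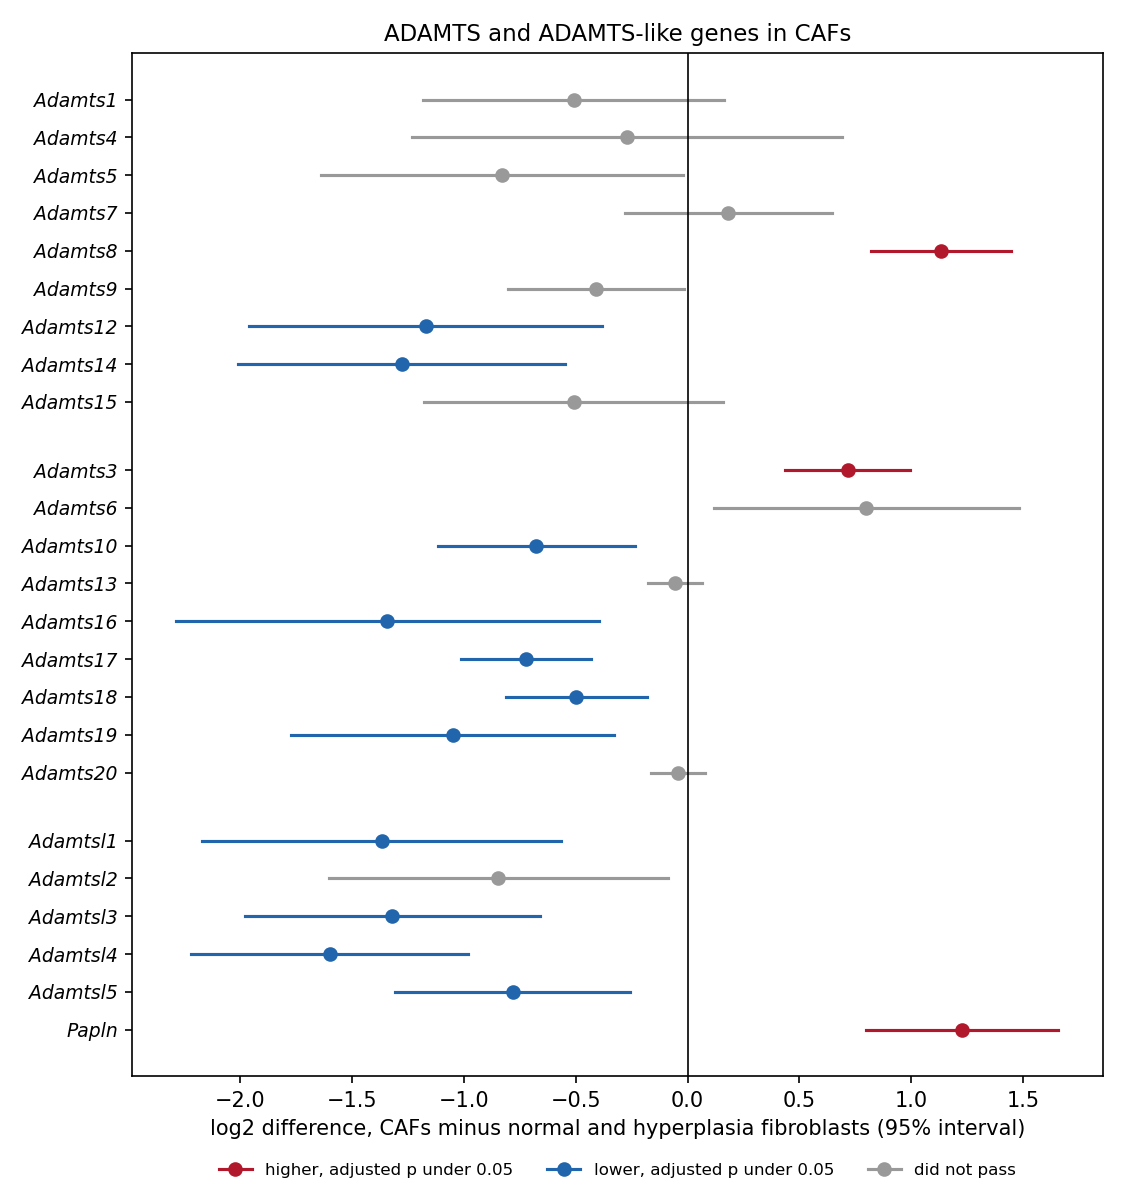
Log2 difference (x axis, CAFs minus normal and hyperplasia fibroblasts) with its 95% interval (bars) for the members, the other ADAMTS genes and the ADAMTS-like genes (y axis, from top to bottom), with genes that rose in red, those that fell in blue and those that did not pass in grey. Adamts8, Adamts3 and Papln lie above 0 at 1.13, 0.72 and 1.23, and 11 genes lie below it past the threshold.

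Among 10 genes of activation, inhibition and clearance, 3 rose and 3 fell, with a median of -0.04 like that of all genes. Of the convertases that remove propeptides, Furin rose by 0.43 (8.76 ± 0.19 against 8.33 ± 0.08, adjusted p = 0.00579 in limma), and Pcsk6 fell by 1.26 (9.10 ± 0.47 against 10.37 ± 0.32, adjusted p = 0.00270). Pcsk5 did not pass (7.35 ± 0.62 against 7.09 ± 0.16). Timp3, the ADAMTS inhibitor, fell by 0.82 (10.40 ± 0.42 against 11.21 ± 0.29, adjusted p = 0.0147), and Timp2 by 0.57 (adjusted p = 0.0149). A2m, a trap for proteases of many classes, rose by 1.30 (adjusted p = 0.0113), and Sdc4, a cell-surface proteoglycan, by 0.63 (0.0140). Macrophage marker means were highest in advanced carcinoma D8 and D9 (8.11 and 8.27), where A2m was highest too (6.01 and 6.54). Carcinoma D4 had a macrophage mean of 7.83 with A2m at 5.46, and advanced carcinoma D11 had 6.49 with A2m at 5.77. Carcinoma D3 and D10 had 6.44 and 6.23, with A2m at 4.62 and 4.74. The part of macrophages in the rise of A2m was not tested.

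Of 32 measured genes in the 3 lists of known substrates and their processing, 7 were called (21.9%), near the share of all genes. Of 9 hyalectan genes and partners only Cd44, a hyaluronan receptor, passed, with a rise of 1.06 (adjusted p = 0.00231 in limma). Of 11 genes of procollagen and its other processing, none rose and 2 fell: Tll1, a procollagen C-proteinase, by 1.15 (adjusted p = 0.00126) and Pcolce2, an enhancer of that enzyme class, by 1.24 (0.0112), with a list median of -0.71. Of 12 other matrix substrates, the adhesion modulators Tnc and Thbs1 rose by 1.62 (adjusted p = 0.0215) and 0.98 (0.0139), and the basement membrane linkers Nid1 and Nid2 fell by 0.75 (0.0239) and 1.14 (0.0101).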

How the data were processed

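The authors hybridised cDNA to Affymetrix Mouse Gene 1.0 ST arrays and used Partek Genomics Suite 6.5 to normalise and summarise them by robust multi-average. The deposited values are log2 expression of 35399 probe sets in 11 arrays and carry no detection calls. Image files were not used here. The platform annotation gave 1 symbol to 21789 probe sets, several to 1621 and none to 11989. The brightest probe set was kept for each gene (999 genes had several), which left 19938 genes. Groups came from the sample labels. The tests used limma 3.58.1 under R 4.3.3 (lmFit and eBayes, two-sided): stages were compared in a fit of 4 stages over 11 arrays, and CAFs (6 arrays) with normal and hyperplasia (5) in a fit of 2 groups. P-values were adjusted by Benjamini-Hochberg over all genes, with a threshold of 0.05. Members and gene lists were chosen with earlier results of these data known. Of the lists, only genes that passed in CAFs or in advanced carcinoma against normal glands were named, at most 6 a list by smallest p, the sort's own markers apart. The alternatives were median-centred or quantile-normalised arrays, genes below the median level (5.64) left out, every probe set, contrasts of the one-way ANOVA that the methods name, limma-trend with robust estimates, array weights, a term for the tied arrays or their omission, the study's threshold (unadjusted p under 0.05 and a fold over 1.5) and each array left out in turn. The study's threshold was applied to the p-values of the limma fits, not to those of the study's own test. The omission of the tied arrays together with carcinoma D4 was added after seeing the data. The procedure was tested on simulated data with independent noise in each array. The simulation held neither a tied pair nor an array like carcinoma D4, so it does not cover these features. Promoters were read from a RefSeq table (GRCm38.p6). Precision is limited by the number of arrays.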

Additional observations from a re-analysis of the deposited data

Results flagged for a closer look

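Carcinoma D4 lay far from the other 5 CAF arrays for 5 of the 9 members, by the gap to its nearest neighbour relative to the range of the 6 arrays. Its log2 level was 6.96 for Adamts1, where the others lay between 8.47 and 8.79. For Adamts4 it was 4.70, with the others between 6.64 and 7.38. It was 5.48 for Adamts7 (others 6.30 to 6.74), 7.71 for Adamts12 (9.20 to 10.04) and 5.99 for Adamts15 (7.34 to 7.67). In all, 18 sets of arrays were checked (9 members in 2 groups), and chance alone singles out about 1 in 20 if sets are independent. These sets share their arrays and are not independent. All 5 came from the same array, which also had the lowest fibroblast and the highest luminal marker mean. The share of all genes flagged by this rule is not given, so the count is not a result about the members.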

How the results depend on the processing

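No paired analysis was possible because no stages share replicate numbers. The count of members called in CAFs stayed within 1.5 times its value under every alternative run (2 to 3 with an array left out). Adamts8 passed there in 20 of 20 alternatives (adjusted p from 2.98e-05 to 0.00428; it was not tested without genes below the median level), Adamts14 in 21 of 21 (0.00826 to 0.0455) and Adamts12 in 12 of 21. Without genes below the median level the 4 counts of 1 that follow were each 0. Each of these counts was Adamts8 alone, which that setting leaves out, so the 0 says nothing about its call. Percentages in brackets are shares of all genes called under the same setting, and these shares moved with the settings as well. In advanced carcinoma against normal glands (5.61%) the count of 1 became 4 with array weights (19.6%) and 2 at the study's threshold (10.6%). With an array of another stage left out it was 1 to 4 (4 without carcinoma D4, 15.8%). The count also moved in the fits that leave 1 normal array, and those counts are not given. In carcinoma against normal glands (0.938%) the count of 1 became 0 with median-centred (1.71%) or quantile-normalised arrays (1.26%) and with every probe set (0.226%). It was also 0 with ANOVA contrasts (0%) and with a term for the tied arrays (0.00502%), and 2 at the study's threshold (6.98%). With an array of another stage than normal left out it was 0 to 1 (1 only without D4, 1.85%). In advanced carcinoma against hyperplasia (14.5%) the count of 1 became 5 with array weights (31.3%) and 3 at the study's threshold (13%). It was 4 without the tied arrays and D4 (24.5%), and 1 to 4 with an array left out (4 without D4, 25.2%). In carcinoma against hyperplasia (9.25%) the count of 1 became 4 at the study's threshold (10.5%) and 3 without the tied arrays and D4 (7.78%). With an array left out it was 0 to 3 (0 without hyperplasia D6, 1.78%, and 3 without carcinoma D10, 13.5%). In advanced carcinoma against carcinoma (0%) the count of 0 became 1 without the tied arrays and D4 (1.91%). Signs turned for Adamts4 in CAFs (0.089 with array weights, 0.029 without the tied arrays and D4, and -0.44 to 0.10 with an array left out, the last without D4), for Adamts1 in advanced carcinoma against normal glands (-0.71 to 0.020 with an array left out, the last without normal D5) and for Adamts15 there (-0.049 without the tied arrays, with or without D4), and the cause was not tested. Over all genes, calls in CAFs went from 4961 (2402 higher, 2559 lower) to 7062 with median-centred arrays (1948 higher, 5114 lower) and 2426 at the study's threshold, and median-centring also moved the split in advanced carcinoma against normal glands (777 higher and 341 lower to 731 and 568), against hyperplasia (1698 and 1199 to 1388 and 2668) and in carcinoma against hyperplasia (974 and 871 to 887 and 1213). Calls ran in advanced carcinoma against normal glands (1118) from 27 without the tied arrays to 3908 with array weights, in carcinoma against normal glands (187) from 0 with ANOVA contrasts to 1391 at the study's threshold, in advanced carcinoma against hyperplasia (2897) from 892 without advanced carcinoma D9 to 6237 with array weights, and in carcinoma against hyperplasia (1845) from 354 without hyperplasia D6 to 2937 with array weights. From 0 they reached 200 in hyperplasia against normal glands (study's threshold) and 1301 in advanced carcinoma against carcinoma (array weights).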
